A study of Mus musculus with 16 samples.

Results

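The genes described here are 33 genes of autophagy, from the kinase complex that starts the process to the cargo receptors it consumes, together with the transcription factors Tfeb and Tfe3, which are counted among the 33. They were taken by gene symbol from a list of names. All 33 were found among the 20295 genes of the count table, and all 33 passed the filter on low counts that left 12786 genes for testing. RNA-seq was done on BAT-LgT cells, a single line of mouse brown preadipocytes made immortal with the SV40 large T antigen, after differentiation to day 7. The cells were pretreated for 1 h with vehicle (DMSO), with 5 µM triacsin C (TC), which blocks the acyl-CoA synthetases that activate fatty acids, or with 50 µM etomoxir (ETO), which blocks the transport of fatty acids into mitochondria. They were then kept for 3 h with or without SR-3420, a synthetic ligand of ABHD5 that sets off lipolysis with no β-adrenergic agonist. Its dose was 10 µM per the labels, and the paper's legend gives another dose. The comparisons ask how transcripts responded to lipolysis when fatty acids could be activated and oxidised, and when either step was blocked.

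The 16 samples fell into 6 groups: vehicle (replicates 2 and 3), SR-3420 (replicates 1 and 3), and TC, TC with SR-3420, ETO and ETO with SR-3420 (replicates 1, 2 and 3 each). Values below follow that order of replicates within each group. Total counts per sample were 14032494 and 10097582 in vehicle, 19156037 and 15667121 in SR-3420, 9452861, 15818919 and 13164376 in TC, 16265789, 12043744 and 10659704 in TC with SR-3420, 14993463, 11813662 and 10993504 in ETO, and 25670624, 13173278 and 16512525 in ETO with SR-3420. The study's methods describe the RNA-seq as done in independent experiments, and the labels do not say which samples share an experiment, so p-values measure the spread between these samples of a single line. SR-3420 against vehicle, TC against vehicle and ETO against vehicle share the vehicle samples, TC against vehicle and TC with SR-3420 against TC share the TC samples, and ETO against vehicle and ETO with SR-3420 against ETO share the ETO samples, so these comparisons are not independent of each other.

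Autophagy encloses cytoplasm in a double membrane, the autophagosome, and delivers it to the lysosome for breakdown. The ULK1 kinase complex and the class III PI3-kinase complex start the membrane, ubiquitin-like conjugation systems attach LC3 and GABARAP proteins to it, and cargo receptors such as p62, the product of Sqstm1, tie the cargo to LC3. In well-fed cells mTORC1 holds back both ULK1 and the transcription factors TFEB and TFE3, which act on autophagy and lysosomal genes, and in brown fat autophagy is known for the removal of mitochondria and the turnover of lipid droplets.

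In several members the count moved with the replicate number, and this is given before the results because each of the 6 groups has a replicate 3. Replicate 3 held the highest value of its group in all 6 groups for Atg4c, Atg5, Atg12, Gabarap, Rb1cc1 and Nbr1, and the lowest in all 6 for Ulk1, Atg2a, Atg9a and Tfe3. Rb1cc1, the FIP200 scaffold of the ULK complex, had normalized counts (counts divided by DESeq2's size factors) of 396 and 717 in vehicle, 259 and 490.4 in SR-3420, 406, 299 and 495 in TC, 384, 452 and 849 in TC with SR-3420, 385, 586 and 1191 in ETO and 374, 543 and 1063 in ETO with SR-3420. In ETO and in ETO with SR-3420 the replicate 3 value of Rb1cc1 was far above the other two, and the groups overlapped in every comparison. Ulk1 ran the other way, with 1605, 1389 and 938 normalized counts in ETO. Between replicates of a group, the squared differences came to 4.37 to 156 times those of counting error. No pair of libraries was identical.

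Measured per kb of counted length, Sqstm1 was the most abundant member in vehicle, at 5962 normalized counts per kb, followed by Gabarap (2798), Gabarapl1 (1713), Map1lc3a (1698), Map1lc3b (981) and Becn1 (735). The least abundant were Atg4a (24.6), Atg16l2 (52.6), Atg4c (57.4) and Atg10 (58.1). The study's methods describe a filter that keeps 1 read per position and length, so reads of different length may share a position. Sqstm1 reached 23.5 counts per counted base in a single library, and whether that filter acted on these counts is not known. How reads that match more than 1 LC3 or GABARAP gene or a processed copy were assigned is not given in the sources used here, and these genes carry that uncertainty. Strand use in the counting is not stated either, and 2 members lie across a gene of the opposite strand, Atg4d across Kri1 and Becn1 across Cntd1, so counts of both are uncertain.

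Sqstm1 rose and Ulk2 and Map1lc3b fell with SR-3420 in each of the 3 arms, and other members were called in the presence of TC or ETO. A gene was called where edgeR's quasi-likelihood test gave a Benjamini-Hochberg adjusted p under 0.05 over all genes tested. For SR-3420 against vehicle, 1 of the 33 members rose (Sqstm1), beside 4.75% of all genes tested, and 2 fell (Ulk2 and Map1lc3b), beside 2.79%. For TC with SR-3420 against TC, 4 members rose (Sqstm1, Uvrag, Atg2b and Wipi2), beside 17.3% of all genes, and 6 fell (Ulk1, Ulk2, Map1lc3a, Map1lc3b, Gabarapl1 and Gabarapl2), beside 19.7%. For ETO with SR-3420 against ETO, 2 rose (Sqstm1 and Uvrag), beside 12.5%, and 5 fell (Ulk2, Atg7, Map1lc3b, Gabarapl1 and Nbr1), beside 12.8%. Set against these shares of all genes, most of the members' counts in this fit are near what 33 genes would hold, so the results lie in which members moved. The median log2 fold change of the 33 was -0.18 for SR-3420 alone, -0.0032 with TC and -0.11 with ETO, against -0.0038, 0.019 and 0.0094 over all genes tested. The number of members that fell with TC was 3 without TC replicate 3 or TC with SR-3420 replicate 2. With ETO it was 3 without ETO with SR-3420 replicate 2. With ETO 1 member rose without ETO replicate 2 or ETO with SR-3420 replicate 2. With SR-3420 alone, each of the 3 calls was lost without at least 3 of the 4 libraries, as given gene by gene.

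Given without SR-3420, TC moved members in both directions. For TC against vehicle, 3 members rose (Sqstm1, Gabarapl1 and Tfe3), beside 4.77% of all genes tested, and 4 fell (Atg7, Atg13, Uvrag and Optn), beside 6.94%. The median log2 fold change with TC was -0.19 against 0.072 over all genes. The number that rose was 1 without TC replicate 1 or TC replicate 2, no call among the risen was kept without vehicle replicate 3, and the number that fell was 2 without vehicle replicate 2. For ETO against vehicle, edgeR called 0 members higher and 0 lower, beside 0.0156% and 0.00782% of all genes tested. At an unadjusted p under 0.05 the counts for ETO were 0 higher and 1 lower (Atg13), and DESeq2 called 0 and 0. Of all 12786 genes tested, 116 were higher and 167 lower without adjustment, and DESeq2 called 7 higher and 10 lower. The median log2 fold change with ETO was -0.027 for the members and 0.0081 for all genes. A difference between TC and ETO was not tested.

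**Figure D1:**
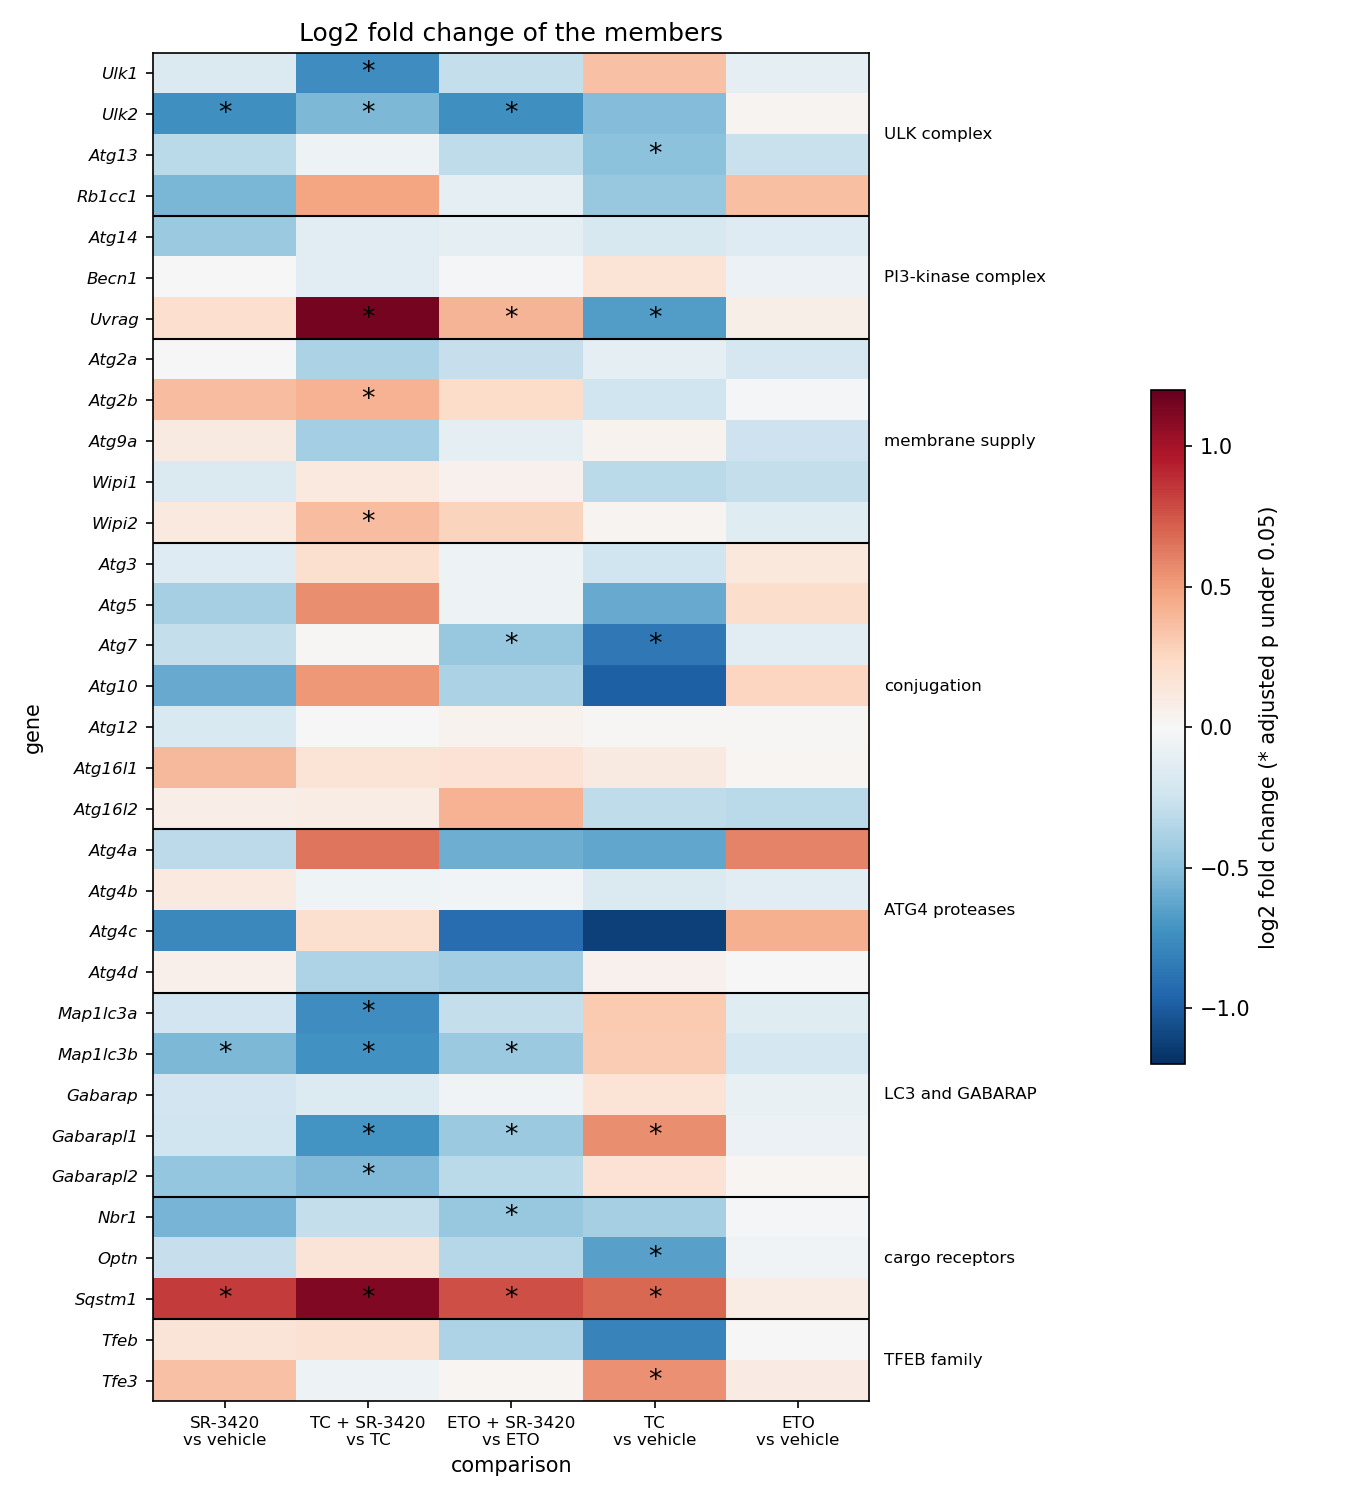
Log2 fold change of the 33 members (rows, grouped by role) in 5 comparisons (columns), on a colour scale from blue (lower) to red (higher), with a star where edgeR's adjusted p was under 0.05. Sqstm1 is starred in 4 of the 5 columns, and the ETO column holds no star.

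The promoters of 3 members that the results turn on are printed because these genes moved in different directions. They are the 250 bases before the RefSeq transcription start, in build GRCm38.p6 and not the mm9 build of the counts, 5′ to 3′ on the gene's own strand. The stretch for Sqstm1 lies at chr11:50210821-50211070 on the minus strand, that for Map1lc3b at chr8:121590188-121590437 on the plus strand, and that for Gabarapl1 at chr6:129532942-129533191 on the plus strand. Capitals would mark the E-box CACGTG, which is in none of these 3 stretches, so all letters are in lower case.
Sqstm1: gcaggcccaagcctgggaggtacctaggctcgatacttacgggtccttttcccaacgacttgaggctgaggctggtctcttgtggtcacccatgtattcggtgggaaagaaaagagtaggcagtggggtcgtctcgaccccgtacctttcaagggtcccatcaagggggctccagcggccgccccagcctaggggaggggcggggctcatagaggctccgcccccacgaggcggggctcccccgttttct
Map1lc3b: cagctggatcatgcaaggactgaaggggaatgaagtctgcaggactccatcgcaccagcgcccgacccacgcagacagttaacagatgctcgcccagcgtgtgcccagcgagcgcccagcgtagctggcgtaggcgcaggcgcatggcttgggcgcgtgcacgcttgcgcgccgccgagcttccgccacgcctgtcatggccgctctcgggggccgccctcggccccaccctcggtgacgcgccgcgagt
Gabarapl1: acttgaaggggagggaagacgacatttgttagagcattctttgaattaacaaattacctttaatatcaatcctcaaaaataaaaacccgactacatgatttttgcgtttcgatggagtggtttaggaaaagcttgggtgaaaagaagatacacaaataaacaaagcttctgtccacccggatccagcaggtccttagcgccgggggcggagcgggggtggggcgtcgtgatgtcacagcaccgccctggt
The first 2 promoters were rich in G and C (63.2% and 69.6% of the bases), and that of Gabarapl1 less so (46.8%). Motifs were searched on both strands from 250 bases before to 50 after the start in 27025 genes, 28 of the members among them. CACGTG, the core of the element read by TFEB and TFE3, was present in 4 members (Atg3, Atg5, Atg7 and Atg14, 14.3%) and in 8.09% of all genes. The RefSeq start used for Atg7 lies 27999 bases inside the gene as counted, so its match is not at the start of the counted gene, and its stretch is not printed. TGATGNAA, a letter pattern for ATF4, was present in 0 members and in 4.51% of all genes. TGACNNNGC, a pattern for NRF2, was present in 3 members (Ulk2, Atg13 and Map1lc3b, 10.7%) and in 3781 of the 27025 genes. In Map1lc3b the match lay outside the 250 bases printed. A match is a description of letters, and its absence says only that these letters are not in the window. Becn1, Atg12, Atg16l1, Map1lc3a and Rb1cc1 were not searched.

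**Figure D2:**
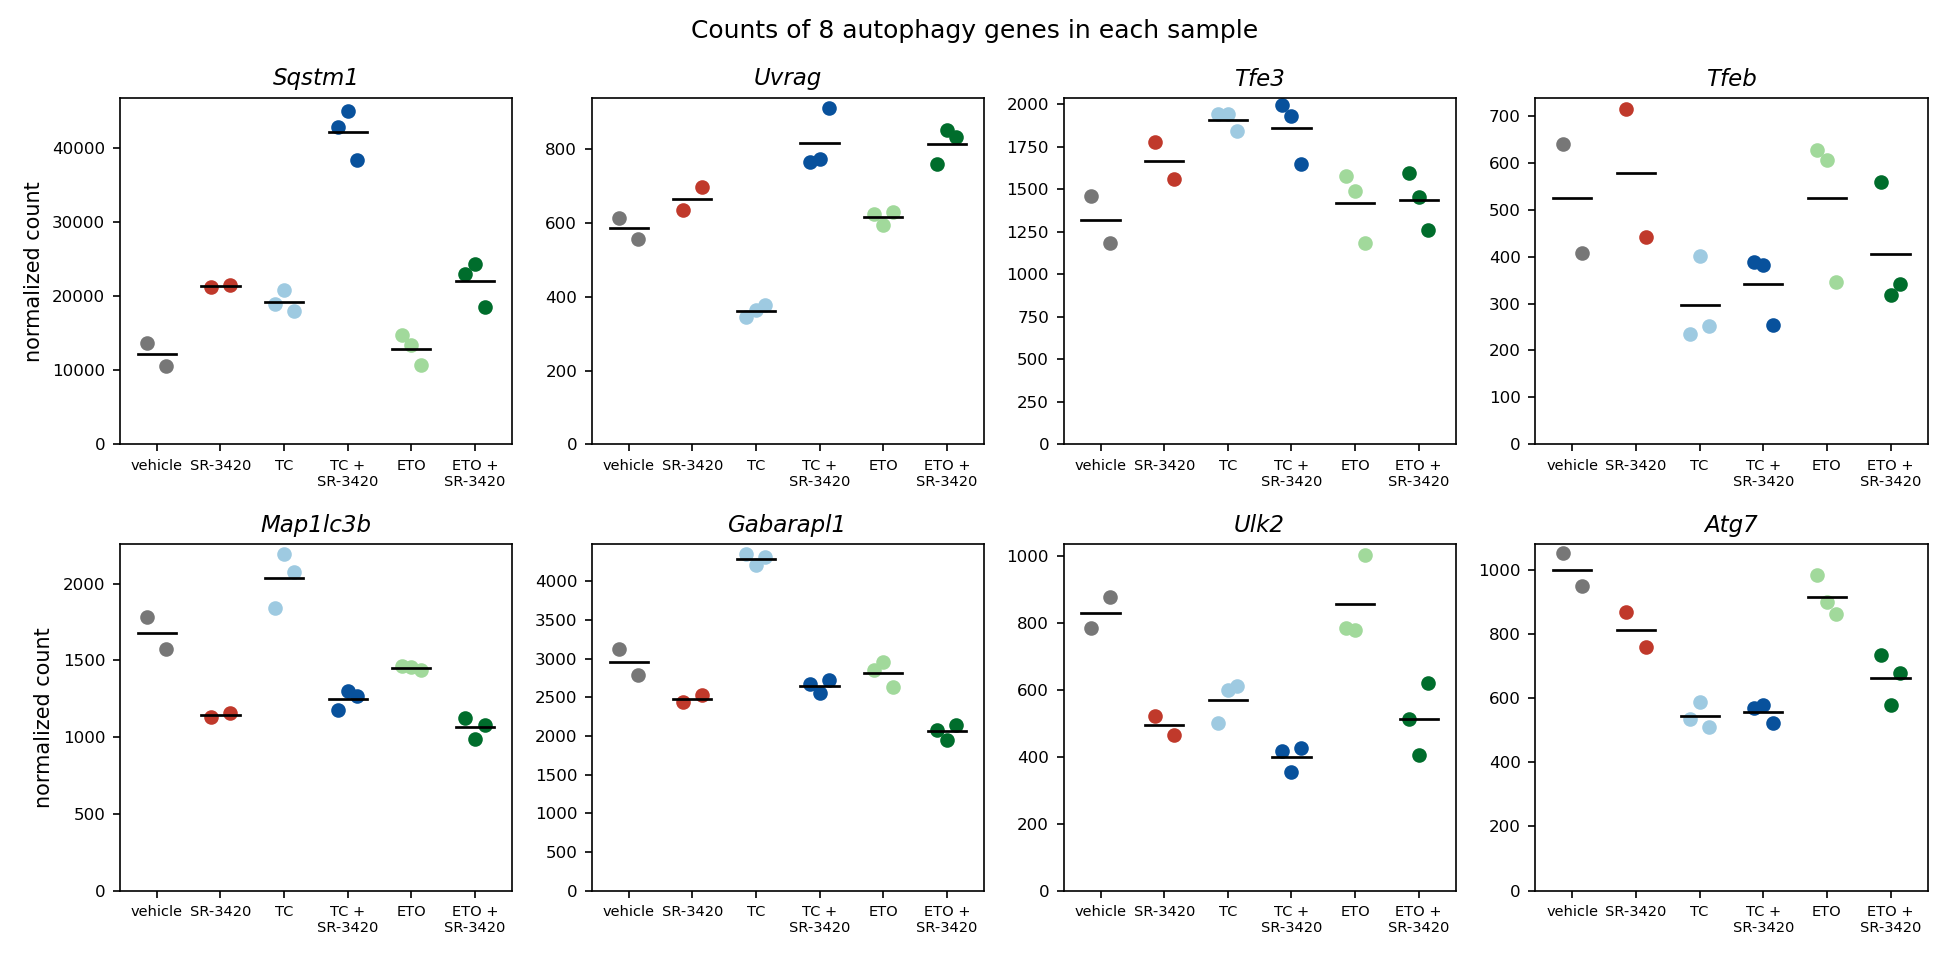
Normalized counts (vertical axes, from 0) of 8 members in each of the 16 samples, with 1 point per sample and a bar at the group mean. Sqstm1 is highest in the 3 samples of TC with SR-3420, Uvrag is lowest in the 3 TC samples, and Gabarapl1 is highest in the 3 TC samples.

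Among the 4 genes of the ULK complex, which receives nutrient signals and starts autophagosome formation, Ulk2 fell with SR-3420 in each of the 3 arms. Ulk2, a kinase related to ULK1, had normalized counts of 785 and 878 in vehicle, 522 and 465 in SR-3420, 499.6, 599 and 611 in TC, 417, 355 and 426 in TC with SR-3420, 784, 780.4 and 1003 in ETO and 513, 405 and 619.9 in ETO with SR-3420. Every sample with SR-3420 was below every sample of its own control, in each arm. The fall was called for SR-3420 alone (log2 fold change -0.74, SE 0.20, adjusted p = 0.0372), with TC (log2 fold change -0.53, SE 0.16, adjusted p = 0.0186) and with ETO (log2 fold change -0.73, SE 0.16, adjusted p = 0.00468). The TC samples of Ulk2 were also below vehicle, without passing the test (log2 fold change -0.52, adjusted p = 0.0753). The difference of the SR-3420 responses between TC and no inhibitor was 0.20 (SE 0.25, adjusted p = 0.691). For SR-3420 alone the Ulk2 call was lost without vehicle replicate 2 or 3 or SR-3420 replicate 1 or 3 (log2 fold change -0.82 to -0.66, adjusted p 0.101 to 0.2), or with no filter on low counts (adjusted p = 0.077). With TC it was lost without TC replicate 2 or 3 or TC with SR-3420 replicate 2 (log2 fold change -0.50 to -0.41, adjusted p 0.0618 to 0.133), or with no filter on low counts (adjusted p = 0.0715). It was kept with ETO in every fit that left out a library.

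Ulk1, the kinase that phosphorylates other autophagy proteins, had normalized counts of 1697 and 1134 in vehicle, 1457 and 1024 in SR-3420, 1661, 2045 and 1631 in TC, 1249.9, 1187 and 794 in TC with SR-3420, 1605, 1389 and 938 in ETO and 1410.2, 956 and 867 in ETO with SR-3420. All 3 TC samples lay above all 3 samples of TC with SR-3420, and the groups overlapped in the other 4 comparisons. Ulk1 fell with SR-3420 in the presence of TC (log2 fold change -0.75, SE 0.26, adjusted p = 0.037), and gave -0.18 for SR-3420 alone (adjusted p = 0.799) and -0.28 with ETO (adjusted p = 0.467). The difference between the responses with TC and without inhibitor did not pass the test (-0.57, SE 0.41, adjusted p = 0.496). The Ulk1 call was lost without TC replicate 1, 2 or 3 or TC with SR-3420 replicate 2 or 3 (log2 fold change -0.81 to -0.58, adjusted p 0.0558 to 0.139).

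Atg13, the regulatory subunit that links the kinase to its scaffold, was highest in vehicle. Its normalized counts were 765 and 699 in vehicle, 556 and 603 in SR-3420, 530.3, 515 and 495 in TC, 525, 509.5 and 468 in TC with SR-3420, 630.3, 651 and 552 in ETO and 521, 469 and 487 in ETO with SR-3420. All 3 TC samples and all 3 ETO samples were below both vehicle samples, and the TC samples overlapped those of TC with SR-3420. Atg13 fell with TC (log2 fold change -0.49, SE 0.12, adjusted p = 0.0166), and the ETO difference did not pass (log2 fold change -0.26, adjusted p = 1). With SR-3420 the log2 fold change was -0.32 alone (adjusted p = 0.171), -0.057 with TC (adjusted p = 0.711) and -0.31 with ETO (adjusted p = 0.0529). The Atg13 call was lost without vehicle replicate 2 or 3 or TC replicate 2 or 3 (log2 fold change -0.56 to -0.42, adjusted p 0.0511 to 0.133). Rb1cc1 passed in no comparison, with log2 fold changes from -0.55 for SR-3420 alone to 0.47 with TC and SR-3420 and standard errors of 0.47 to 0.58.

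Of the 3 members in the class III PI3-kinase complex, which makes the lipid PI3P on the forming membrane, Uvrag changed most. Uvrag, a Beclin 1 partner known for roles in autophagosome and endosome maturation, had normalized counts of 613 and 558 in vehicle, 635 and 697 in SR-3420, 346, 365 and 378 in TC, 766, 774 and 911 in TC with SR-3420, 625, 595 and 631 in ETO and 760.2, 852 and 835 in ETO with SR-3420. The 3 TC samples were the lowest of all 16, and the samples of TC with SR-3420 and of ETO with SR-3420 were the highest, with no overlap with their own controls. Uvrag fell with TC (log2 fold change -0.67, SE 0.13, adjusted p = 0.00312) and rose with SR-3420 in the presence of TC (log2 fold change 1.15, SE 0.11, adjusted p = 1.31e-05) and of ETO (log2 fold change 0.41, SE 0.11, adjusted p = 0.017). For SR-3420 alone both samples were above vehicle, and the difference did not pass (log2 fold change 0.20, SE 0.14, adjusted p = 0.442). The response to SR-3420 was larger with TC than without inhibitor, by 0.95 on the log2 scale (SE 0.18, adjusted p = 0.0154). This difference was no longer called without vehicle replicate 2 or 3 or SR-3420 replicate 1 (log2 fold change 0.87 to 1.02, adjusted p 0.0603 to 0.0949). With ETO the Uvrag call was lost without ETO replicate 2 or ETO with SR-3420 replicate 2 (log2 fold change 0.37 to 0.39, adjusted p 0.0648 to 0.0698), or with no filter on low counts (adjusted p = 0.0511). The difference of responses between ETO and no inhibitor was 0.21 (adjusted p = 0.988). The calls for TC against vehicle and for TC with SR-3420 were kept in every fit that left out a library.

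Uvrag was the 1 member called higher in the difference of SR-3420 responses between TC and no inhibitor, beside 1.24% of all genes tested. No member was called lower by edgeR (0 of 33, beside 1.27% of all genes). At an unadjusted p under 0.05 there were 2 higher and 1 lower, and DESeq2 called 1 higher and 1 lower. Of all 12786 genes tested, 896 were higher and 1234 lower without adjustment, and DESeq2 called 3.39% higher and 2.93% lower. In the difference between ETO and no inhibitor edgeR called 0 members higher and 0 lower, beside 0.0% of all genes in each direction, and both the unadjusted counts and DESeq2's were 0 and 0 for the members. Over all genes those counts were 102 higher and 205 lower without adjustment, and 3 and 6 by DESeq2. Median differences were 0.18 for TC and -0.023 for ETO over the members, and -0.040 and -0.0015 over all genes. The other 2 members in the PI3-kinase complex passed in no comparison. Atg14, which directs the complex to the site of autophagosome formation, stood at 325 ± 8.20 normalized counts in vehicle (mean ± SD, n = 2) and 236 ± 10.8 in SR-3420 (log2 fold change -0.44, SE 0.18, adjusted p = 0.161), with both SR-3420 samples below vehicle. Becn1, the Beclin 1 core of the complex, ranged from 947 to 1363 over all 16 samples, and its groups overlapped in every comparison. The core subunits of the complex, Pik3c3 and Pik3r4, belong to the list of other autophagy genes. Pik3c3, the lipid kinase itself, fell with TC (log2 fold change -1.07, adjusted p = 0.00189) and with ETO and SR-3420 (log2 fold change -0.66, adjusted p = 0.0114). Its partner Pik3r4 fell in the same comparisons (log2 fold change -0.57, adjusted p = 0.047 and log2 fold change -0.51, adjusted p = 0.028). How Pik3c3 and Pik3r4 fared in the fits that left out a library is not given here.

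The 5 genes of membrane supply serve the ATG9 vesicles, lipid transfer and the reading of PI3P. Atg2b, a lipid transfer protein that feeds the growing membrane, had normalized counts of 1316 and 1198 in vehicle, 1562 and 1661 in SR-3420, 1061, 994 and 1088 in TC, 1457, 1355 and 1434 in TC with SR-3420, 1295, 1236 and 1215 in ETO and 1548, 1409 and 1389 in ETO with SR-3420. In all 3 arms every sample with SR-3420 was above every sample of its control. Atg2b rose with SR-3420 in the presence of TC (log2 fold change 0.41, SE 0.10, adjusted p = 0.00463), and this call was kept whichever library was left out. The log2 fold change for SR-3420 alone was 0.37 (adjusted p = 0.0743) and with ETO 0.22 (adjusted p = 0.111), and the difference between the TC and no-inhibitor responses was 0.039 (adjusted p = 0.908). Wipi2, which binds PI3P and recruits the ATG16L1 complex, rose with SR-3420 in the presence of TC (log2 fold change 0.37, SE 0.10, adjusted p = 0.0104), from 2647 ± 122 to 3474 ± 137 normalized counts (mean ± SD, n = 3 each). Its difference from the response without inhibitor was 0.25 (adjusted p = 0.441). Atg2a, Atg9a and Wipi1 were called in no comparison. Atg9a, the membrane protein of the vesicles, had a standard error of 0.29 for TC with SR-3420 against TC, against 0.10 for Atg2b, and its groups overlapped in every comparison.

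The 7 conjugation genes attach ATG12 to ATG5 and LC3 to lipid. Atg7, the E1-like enzyme shared by both reactions, had normalized counts of 1052 and 949 in vehicle, 867 and 759 in SR-3420, 533, 587 and 509 in TC, 569, 578 and 523 in TC with SR-3420, 983, 900.1 and 861 in ETO and 734, 577 and 679 in ETO with SR-3420. The TC samples lay at about the level of TC with SR-3420, and all 6 were below the lower of the vehicle samples. Atg7 fell with TC (log2 fold change -0.86, SE 0.13, adjusted p = 0.000716), a call kept in every fit that left out a library, and SR-3420 on top of TC gave 0.014 (adjusted p = 0.936). It also fell with SR-3420 in the presence of ETO (log2 fold change -0.46, SE 0.12, adjusted p = 0.0126), and for SR-3420 alone both samples were below vehicle without passing (log2 fold change -0.28, adjusted p = 0.278). The difference between the ETO and no-inhibitor responses was -0.17 (adjusted p = 0.988). The ETO call for Atg7 was lost without ETO replicate 1 or ETO with SR-3420 replicate 2 (log2 fold change -0.40 to -0.38, adjusted p 0.0513 to 0.0638).

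The other 6 conjugation genes passed in no comparison. Atg5, the acceptor of ATG12, had normalized counts of 337 and 473 in vehicle, 258, 229 and 297 in TC and 313, 332 and 529 in TC with SR-3420. All 3 TC samples were below vehicle and below TC with SR-3420, with log2 fold changes of -0.61 for TC (SE 0.37, adjusted p = 0.361) and 0.56 for SR-3420 in its presence (SE 0.33, adjusted p = 0.205). Atg10, the E2-like enzyme for ATG12, stood between 28.9 and 169 normalized counts over all samples and gave -0.98 with TC (SE 0.49, adjusted p = 0.24). Atg16l1, which brings the ATG12 to ATG5 conjugate to the membrane, was above vehicle in both SR-3420 samples (log2 fold change 0.39, SE 0.14, adjusted p = 0.124). Atg3, the E2-like enzyme for LC3, and Atg12 itself had overlapping groups in every comparison, as did Atg16l2, a relative of Atg16l1.

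The 4 ATG4 proteases trim LC3 and GABARAP proteins before conjugation and release them from lipid after it. By edgeR 0 of the 4 were called in each of the 7 tests, beside 0.0% to 19.7% of all genes in a direction. At an unadjusted p under 0.05 there was 1 lower (Atg4c) for TC against vehicle and 1 lower (Atg4c) for ETO with SR-3420 against ETO, and DESeq2 called 1 lower in each of these. In the other 5 tests both counts were 0. Of all 12786 genes, 1552 were lower without adjustment for TC, and 8.96% by DESeq2. For ETO with SR-3420 against ETO, 2442 were lower without adjustment, and 15.2% by DESeq2. Atg4c had normalized counts of 128 and 237 in vehicle, 92.4 and 118 in SR-3420, 86.4, 72.7 and 87.4 in TC, 72.7, 96.3 and 118 in TC with SR-3420, 149, 246 and 344 in ETO and 96.7, 108 and 185 in ETO with SR-3420. All TC samples were below both vehicle samples (log2 fold change -1.12, SE 0.37, adjusted p = 0.0699), and in ETO with SR-3420 only replicate 3 reached into the range of ETO (log2 fold change -0.91, SE 0.33, adjusted p = 0.0584). Atg4b gave log2 fold changes from -0.17 to 0.11 over the 5 comparisons. Atg4d gave -0.37 with TC and SR-3420 (adjusted p = 0.167), and Atg4a, at 27.0 to 109 normalized counts, gave 0.64 (adjusted p = 0.151).

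The LC3 and GABARAP genes encode the ubiquitin-like proteins that mark the autophagosome membrane. All 5 had a log2 fold change below 0 with SR-3420 in each of the 3 arms, with TMM and with DESeq2's size factors, and 1 of the 5 was called lower for SR-3420 alone, 4 with TC and 2 with ETO, beside 2.79%, 19.7% and 12.8% of all genes tested. The family medians were -0.24, -0.72 and -0.32. With TC alone all 5 were above 0, and 1 was called (median 0.30), beside 4.77% of all genes. All of the 5 but Gabarapl2 span at most 10 kb, and over all tested genes up to that length the median was -0.36 for TC with SR-3420 against TC and 0.31 for TC alone. Among them Map1lc3b, the LC3B gene whose promoter is printed, had normalized counts of 1783 and 1577 in vehicle, 1131 and 1159.7 in SR-3420, 1839, 2197 and 2078 in TC, 1175, 1298 and 1269.7 in TC with SR-3420, 1464, 1454 and 1440.0 in ETO and 1125, 989 and 1081 in ETO with SR-3420. Every SR-3420 sample was below every sample of its control in each arm, and the TC samples were all above vehicle. Map1lc3b fell with SR-3420 alone (log2 fold change -0.54, SE 0.13, adjusted p = 0.022), with TC (log2 fold change -0.73, SE 0.10, adjusted p = 0.00015) and with ETO (log2 fold change -0.44, SE 0.10, adjusted p = 0.00732), and TC against vehicle did not pass (log2 fold change 0.30, adjusted p = 0.123). For SR-3420 alone the call was lost without vehicle replicate 2 or 3 or SR-3420 replicate 1 or 3 (log2 fold change -0.62 to -0.44, adjusted p 0.0549 to 0.156). It was kept in both other arms in every fit that left out a library.

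Gabarapl1, the GABARAP relative with the promoter printed, was highest in the TC samples. Its normalized counts were 3129 and 2783 in vehicle, 2439.7 and 2529 in SR-3420, 4359.9, 4206 and 4312 in TC, 2668, 2555 and 2724 in TC with SR-3420, 2851, 2963 and 2638 in ETO and 2079, 1952 and 2144 in ETO with SR-3420. The 3 TC samples lay above all other samples, and in each arm every SR-3420 sample was below its control. Gabarapl1 rose with TC (log2 fold change 0.56, SE 0.11, adjusted p = 0.00426) and fell with SR-3420 in the presence of TC (log2 fold change -0.72, SE 0.10, adjusted p = 0.000104) and of ETO (log2 fold change -0.45, SE 0.10, adjusted p = 0.0046). The fold change for SR-3420 alone did not pass (log2 fold change -0.24, adjusted p = 0.272), and neither did its difference from the response with TC (-0.48, SE 0.15, adjusted p = 0.121) or with ETO (-0.21, adjusted p = 0.988). The rise with TC was lost without vehicle replicate 3 (log2 fold change 0.47, adjusted p 0.0834).

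Map1lc3a, the LC3A gene, had normalized counts of 2007 and 1541 in vehicle, 1612 and 1392 in SR-3420, 1928, 2570.5 and 2004 in TC, 1401, 1349 and 1190.3 in TC with SR-3420, 1772, 1609.7 and 1446 in ETO and 1541, 1064 and 1339 in ETO with SR-3420. The TC samples were above all samples of TC with SR-3420, and the groups overlapped in the other 4 comparisons. Map1lc3a fell with SR-3420 in the presence of TC (log2 fold change -0.75, SE 0.16, adjusted p = 0.00326) in every fit that left out a library. The difference from the response without inhibitor was -0.52 (SE 0.26, adjusted p = 0.337). Gabarapl2, the least abundant of the 5 in vehicle per kb of counted length, had normalized counts of 182 and 217 in vehicle, 129.7 and 155 in SR-3420, 234, 199 and 229.8 in TC, 144, 163 and 157 in TC with SR-3420, 215, 178 and 216 in ETO and 140.0, 150.3 and 195 in ETO with SR-3420. Its SR-3420 samples were below the controls with no inhibitor and with TC, and overlapped them with ETO. Gabarapl2 fell with SR-3420 in the presence of TC (log2 fold change -0.53, SE 0.16, adjusted p = 0.0199). Its call was lost without TC replicate 1 or 3 or TC with SR-3420 replicate 1 or 2 (log2 fold change -0.52 to -0.48, adjusted p 0.0595 to 0.0714), or with no filter on low counts (adjusted p = 0.0845). The difference of responses was -0.067 (adjusted p = 0.905). Gabarap itself passed in no comparison and its groups overlapped in all 5, with log2 fold changes from -0.23 to 0.17.

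The 3 cargo receptors, which bind ubiquitin on cargo and LC3 on the membrane, moved in different directions. Sqstm1, which encodes p62 and is itself consumed by autophagy, had normalized counts of 13665 and 10539.6 in vehicle, 21269 and 21473 in SR-3420, 18874, 20791 and 17978 in TC, 42809, 44962 and 38359 in TC with SR-3420, 14684, 13319 and 10704 in ETO and 22976, 24313 and 18569 in ETO with SR-3420. The samples of TC with SR-3420 were the highest by far, every SR-3420 sample was above every sample of its control, and the TC samples were above vehicle. Sqstm1 rose with SR-3420 alone (log2 fold change 0.84, SE 0.20, adjusted p = 0.021), with TC (log2 fold change 1.11, SE 0.16, adjusted p = 0.000172) and with ETO (log2 fold change 0.77, SE 0.16, adjusted p = 0.00355), and it rose with TC alone (log2 fold change 0.69, SE 0.18, adjusted p = 0.0248). The responses to SR-3420 with TC and without inhibitor differed by 0.27 (SE 0.25, adjusted p = 0.592). For SR-3420 alone the Sqstm1 call was lost without vehicle replicate 3 or SR-3420 replicate 1 or 3 (log2 fold change 0.66 to 0.85, adjusted p 0.076 to 0.183). For TC alone it was lost without vehicle replicate 3 or TC replicate 1 or 2 (log2 fold change 0.51 to 0.70, adjusted p 0.057 to 0.27). The calls for SR-3420 with TC and with ETO were kept whichever library was left out.

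Nbr1, a receptor related to p62, had normalized counts of 1640.3 and 1836 in vehicle, 1034 and 1303 in SR-3420, 1324, 1219 and 1361 in TC, 971, 1077 and 1208 in TC with SR-3420, 1491, 1675 and 1972 in ETO and 1123, 1178 and 1413 in ETO with SR-3420. In each arm every SR-3420 sample was below its control, and all TC samples were below vehicle. Nbr1 fell with SR-3420 in the presence of ETO (log2 fold change -0.46, SE 0.14, adjusted p = 0.0314), and gave -0.56 for SR-3420 alone (SE 0.17, adjusted p = 0.0736) and -0.28 with TC (SE 0.14, adjusted p = 0.138). The ETO response had a difference from the response without inhibitor of 0.10 (adjusted p = 0.988). The Nbr1 call was lost without ETO replicate 2 or 3 or ETO with SR-3420 replicate 1 or 2 (log2 fold change -0.47 to -0.36, adjusted p 0.0733 to 0.101), or with no filter on low counts (adjusted p = 0.0652). Optn, which encodes optineurin, a receptor for mitochondria and bacteria, had normalized counts of 741 and 703 in vehicle, 541 and 635 in SR-3420, 441, 429 and 488 in TC, 454, 538 and 543 in TC with SR-3420, 644, 728 and 736 in ETO and 532, 495 and 627 in ETO with SR-3420. The TC samples were below both vehicle samples and overlapped TC with SR-3420. Optn fell with TC (log2 fold change -0.65, SE 0.14, adjusted p = 0.00796). The call was lost without vehicle replicate 2 (log2 fold change -0.61, adjusted p 0.071). With SR-3420 it gave -0.28 alone (adjusted p = 0.323), 0.15 with TC (adjusted p = 0.367) and -0.34 with ETO (adjusted p = 0.064).

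The TFEB family was described by its transcripts only, and the location of the proteins in the cell, through which they are mainly controlled, was not measured. Tfe3 had normalized counts of 1459.7 and 1183 in vehicle, 1780.0 and 1558 in SR-3420, 1941, 1943 and 1842 in TC, 1996, 1930.0 and 1649 in TC with SR-3420, 1580.3, 1490.0 and 1183 in ETO and 1596, 1452 and 1262 in ETO with SR-3420. Both SR-3420 samples and all 3 TC samples were above vehicle, and TC with SR-3420 overlapped TC. Tfe3 rose with TC (log2 fold change 0.55, SE 0.16, adjusted p = 0.0421). This call was lost without vehicle replicate 2 or 3 or TC replicate 1, 2 or 3 (log2 fold change 0.40 to 0.72, adjusted p 0.0606 to 0.362), or with no filter on low counts (adjusted p = 0.0855). With SR-3420 the log2 fold change was 0.35 alone (adjusted p = 0.264), -0.061 with TC (adjusted p = 0.765) and 0.023 with ETO (adjusted p = 0.932).

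Tfeb had normalized counts of 641 and 407 in vehicle, 714 and 442 in SR-3420, 234, 402 and 252 in TC, 389, 382 and 255 in TC with SR-3420, 627, 605 and 345 in ETO and 558, 318 and 341 in ETO with SR-3420, and it was called in no comparison. All 3 TC samples were below both vehicle samples, with TC replicate 2 just under vehicle replicate 3, and the groups of the other 4 comparisons overlapped. The log2 fold change with TC was -0.80 (SE 0.35, adjusted p = 0.184), and with SR-3420 it was 0.15 alone, 0.18 with TC and -0.37 with ETO. The standard errors of these 3 values were 0.39, 0.32 and 0.32.

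Fold changes with TC went with the genomic length of the genes, the longer members included. Over the 1520 tested genes longer than 100 kb, the median log2 fold change of TC against vehicle was -0.57, with 10 called higher and 542 lower, against 0.12 over the other 11266. For TC with SR-3420 against TC it was 0.66, with 777 higher and 42 lower, against -0.068. The 4 members over that length, Atg7, Atg10, Atg4a and Uvrag, had medians of -0.76 and 0.58 in these comparisons. Atg7 gave 0.014 in the latter, unlike the other 3 (0.52, 0.64 and 1.15). For the difference of SR-3420 responses between TC and no inhibitor, in which Uvrag was called, the medians were 0.61 over all genes longer than 100 kb, 0.96 over the 4 members and -0.11 over the shorter genes. In that difference 142 of the longer genes were called higher and 1 lower, against 16 higher and 162 lower among the shorter genes. Uvrag spans 254402 bases and Atg7 217514 bases, while Map1lc3a spans 1710, Map1lc3b 7580, Gabarapl1 9140 and Sqstm1 10669 bases. For SR-3420 alone the median was 0.0073 over the longer genes, -0.30 over the 4 members and -0.0057 over the shorter genes. For ETO with SR-3420 against ETO it was 0.093 over the longer genes and -0.42 over the 4 members. The part of genomic length in the results was not tested.

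**Figure D3:**
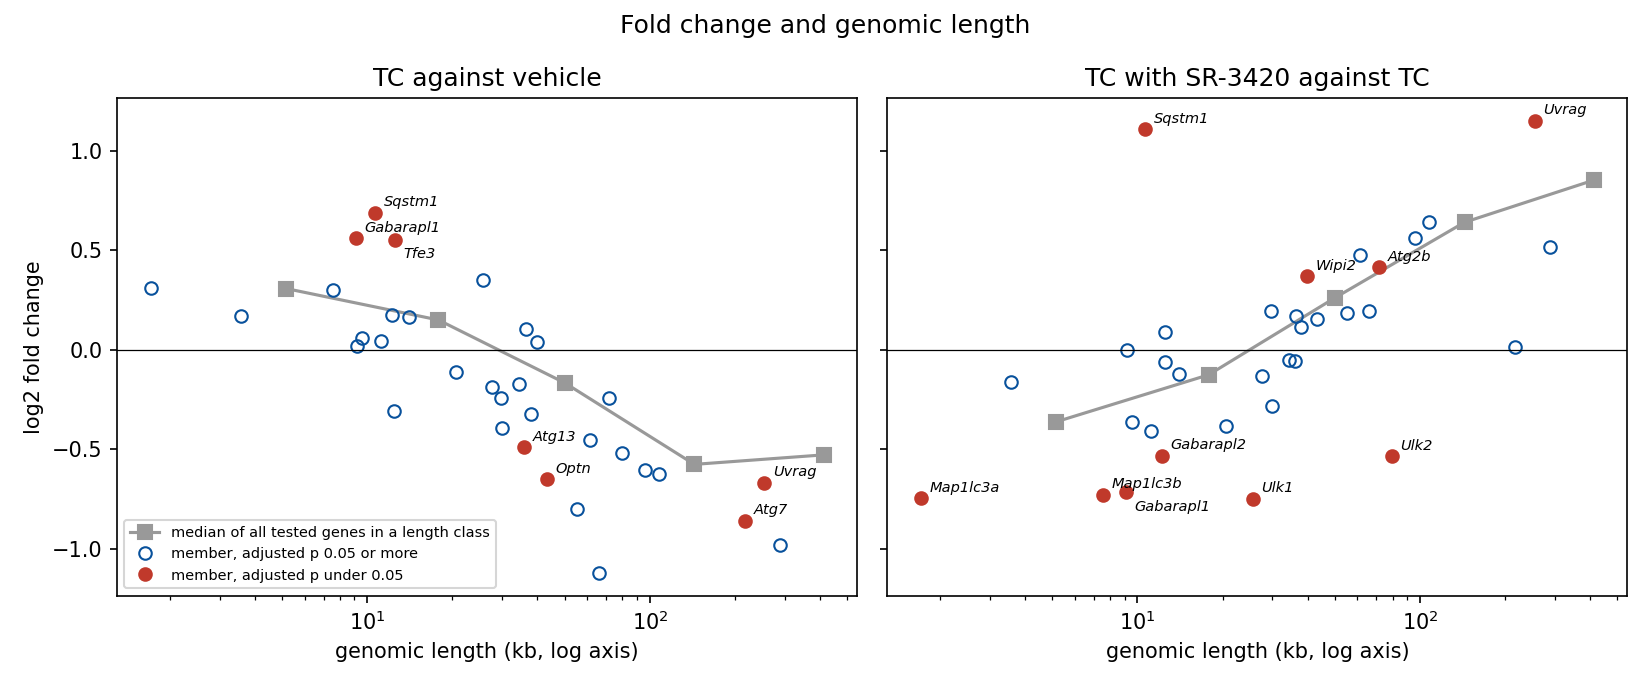
Log2 fold change (vertical axes) against genomic length in kb (horizontal log axes) for the 33 members as circles, filled red where called, with grey squares for the median of all tested genes in 5 length classes. With TC the class medians go from 0.31 for the shortest genes to -0.53 for the longest, and for TC with SR-3420 against TC from -0.36 to 0.85.

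Markers of the cells moved along with these results. In bulk samples, fewer cells of a type and less RNA per cell cannot be told apart. The 9 brown adipocyte markers, of which Fabp4 was the most abundant, had summed normalized counts of 166497 and 159240.0 in vehicle, 118460.0 and 115142 in SR-3420, 176498, 184776 and 186879 in TC, 68066, 69836 and 74418 in TC with SR-3420, 161422, 151078 and 178145 in ETO and 83043, 63847 and 110516 in ETO with SR-3420. The sum, carried by Fabp4, Adipoq and Plin1, was lower in every SR-3420 sample than in its controls. Of the 8 markers tested 1 fell with SR-3420 alone (Pparg), 4 with TC and SR-3420 (Adipoq, Fabp4, Plin1 and Elovl3), 4 with ETO and SR-3420 (Adipoq, Fabp4, Plin1 and Pparg), and 2 with TC (Pparg and Ppargc1a). Other markers of the list lay the other way without passing. For SR-3420 alone the log2 fold change was 0.84 for Ucp1 (adjusted p = 0.453), 0.76 for Cidea (adjusted p = 0.319), 0.73 for Elovl3 (adjusted p = 0.225) and 0.20 for Ppargc1a (adjusted p = 0.742), with both SR-3420 samples above vehicle for all but Cidea. With ETO and SR-3420 it was 1.11 for Ucp1 (adjusted p = 0.0998) and 0.37 for Cidea (adjusted p = 0.474), with all samples above those of ETO. With TC and SR-3420 it was 0.75 for Ucp1 (adjusted p = 0.221). With TC alone it was 0.73 for Elovl3 (adjusted p = 0.164) and 0.59 for Ucp1 (adjusted p = 0.596). Fabp4 gave 0.33 with TC alone (adjusted p = 0.493) and Cidea 0.32 (adjusted p = 0.686). Dio2 was under 10 normalized counts everywhere and Ucp1, the marker that defines brown fat, stood between 6.43 and 49.9. The label of brown adipocyte is therefore that of the cell line. Whether the markers that carry the sum tell brown from other adipocytes was not tested. The 6 preadipocyte or fibroblast markers, led by Col1a1, summed to 18609 and 15441 in vehicle, 45666 and 31159.8 in SR-3420, 26338, 24072 and 19593 in TC, 54027, 43873 and 33003 in TC with SR-3420, 23614, 16396 and 10166 in ETO and 54937, 37252 and 24735 in ETO with SR-3420. Of these 6, 3 rose with TC and SR-3420 and 4 with ETO and SR-3420, in the same samples in which Map1lc3b, Gabarapl1 and Ulk2 fell and Sqstm1 rose. Their part in the result was not tested.

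**Figure D4:**
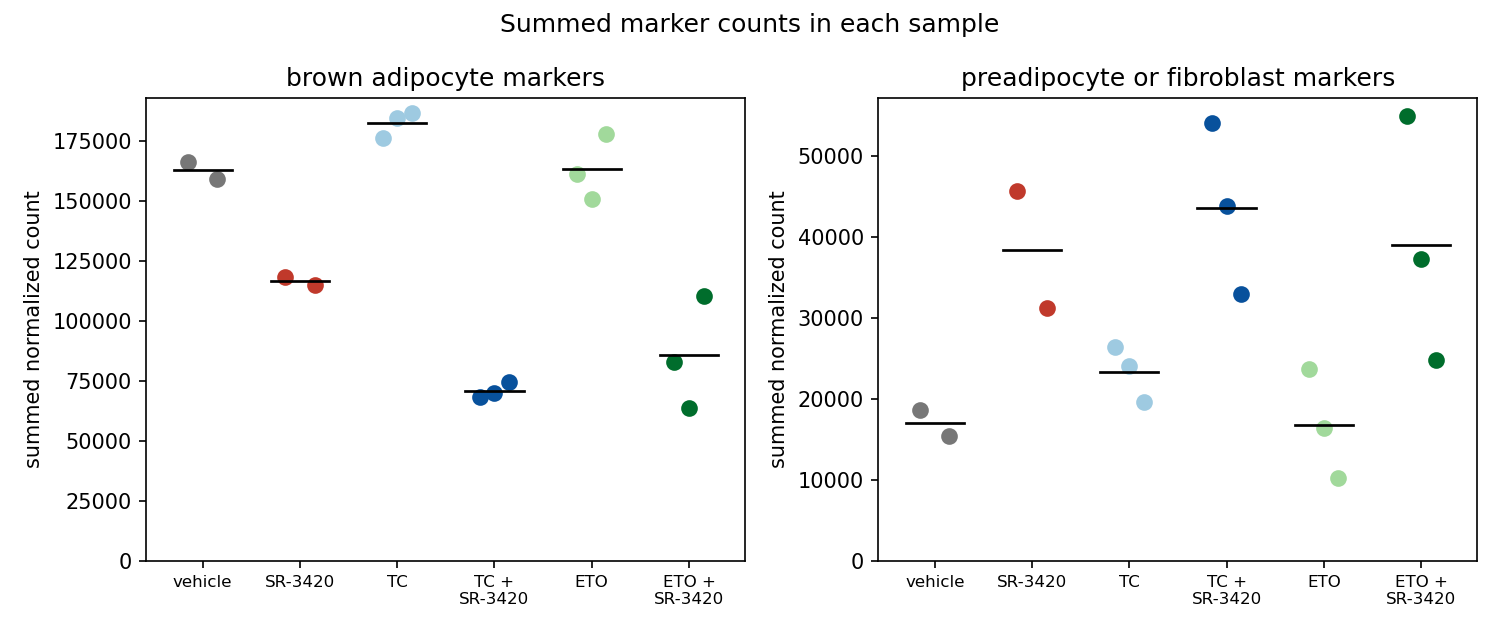
Summed normalized counts (vertical axes, from 0) of the brown adipocyte markers and of the preadipocyte or fibroblast markers in each of the 16 samples, with a bar at the group mean. The adipocyte sum is lowest in the samples that had SR-3420 with TC or with ETO, and the preadipocyte sum is higher in SR-3420 samples than in most controls.

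Markers of other cells were low. The 5 leukocyte markers summed to 94.8 and 55.3 in vehicle, 139 and 81.6 in SR-3420, 223, 245 and 234 in TC, 119, 126 and 109 in TC with SR-3420, 96.0, 106 and 76.3 in ETO and 129, 91.6 and 84.2 in ETO with SR-3420, carried by Cd68, which was higher in TC than in any other group, while Emr1 and Itgam were under 10 in every sample and Ptprc reached 11.3. Cd68 is a lysosomal membrane protein as well as a macrophage marker. The 3 endothelial markers, led by Kdr, summed to 15.1 and 18.0 in vehicle, 23.5 and 25.2 in SR-3420, 11.7, 22.4 and 26.0 in TC, 34.1, 45.8 and 26.9 in TC with SR-3420, 15.4, 27.2 and 12.9 in ETO and 38.8, 40.8 and 36.8 in ETO with SR-3420, with Pecam1 under 10 in every sample, and Kdr rose with SR-3420 in the presence of TC and of ETO. The 4 skeletal muscle markers, led by Myod1, summed to 23.2 and 18.0 in vehicle, 50.3 and 42.5 in SR-3420, 46.9, 35.4 and 124 in TC, 87.9, 102 and 52.5 in TC with SR-3420, 38.0, 27.2 and 17.6 in ETO and 59.6, 57.7 and 26.2 in ETO with SR-3420. Ckm was under 10 in every sample, and Myog (45.8) and Myh3 (27.0) stood out in TC replicate 3. The part of these cell markers in the results was not tested.

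Counts in the next 4 lists can be read against the shares of all genes tested, which were 4.75% higher and 2.79% lower for SR-3420 alone, 17.3% and 19.7% with TC and SR-3420, 12.5% and 12.8% with ETO and SR-3420, and 4.77% and 6.94% with TC alone. Many of the lists' counts are near these shares. At an unadjusted p under 0.05, 1548 of all 12786 genes were higher and 1240 lower for SR-3420 alone. With ETO and SR-3420 these counts were 2316 and 2442, and with TC alone 1551 and 1552. DESeq2's shares were 6.96% and 5.32%, 14.5% and 15.2%, and 6.39% and 8.96% in the same order. Beyond the 33 members, 25 other autophagy genes were tested, which serve the same steps or the fusion with the lysosome (Tfec was below the filter, and Map1lc3c was not analysed here). With SR-3420 alone edgeR called 0 higher and 0 lower (3 higher and 2 lower at an unadjusted p under 0.05, and 0 and 1 by DESeq2). With TC and SR-3420, 4 rose (Ambra1, Wdr45b, Epg5 and Mitf) and 5 fell (Wdr45, Calcoco1, Pink1, Plekhm1 and Tecpr1). With ETO and SR-3420, 5 fell (Pik3c3, Pik3r4, Pink1, Park2 and Plekhm1) and edgeR called 0 higher (0 at an unadjusted p under 0.05 and 0 by DESeq2). Park2 had few reads, with raw counts of 2 to 30 per sample. With TC alone 5 fell (Pik3c3, Pik3r4, Ambra1, Epg5 and Mitf) and edgeR called 0 higher (0 unadjusted and 0 by DESeq2). Pink1, the kinase that tags damaged mitochondria for removal, had normalized counts of 3341 and 2606 in vehicle, 2004 and 1619.8 in SR-3420, 2636, 3495 and 2702 in TC, 1394, 1209 and 1016 in TC with SR-3420, 3015, 2595 and 2188 in ETO and 1685, 971 and 1395 in ETO with SR-3420. Every SR-3420 sample was below its control in each arm, and Pink1 fell with TC and SR-3420 (log2 fold change -1.31, SE 0.21, adjusted p = 0.000347) and with ETO and SR-3420 (log2 fold change -0.94, SE 0.21, adjusted p = 0.00498), in every fit that left out a library. For SR-3420 alone Pink1 did not pass (log2 fold change -0.70, adjusted p = 0.117), and its difference from the response with TC was -0.61 (adjusted p = 0.37). Plekhm1, an adaptor for fusion with the lysosome, fell in the same comparisons (log2 fold change -0.54, adjusted p = 0.0213 and log2 fold change -0.75, adjusted p = 0.00528). With TC the Plekhm1 call was lost without TC replicate 2 or TC with SR-3420 replicate 3 (log2 fold change -0.48 to -0.44, adjusted p 0.0799 to 0.0907).

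The 26 genes of mTORC1 and AMPK control set the activity of the ULK complex and of TFEB. With SR-3420 alone, 3 rose (Rraga, Ddit4 and Sesn2) and 2 fell (Sesn1 and Sesn3). With TC and SR-3420, 6 rose (Rptor, Tsc1, Fnip2, Prkag2, Ddit4 and Sesn2) and 1 fell (Sesn1). With ETO and SR-3420, 3 rose (Fnip2, Ddit4 and Sesn2) and 3 fell (Prkag2, Sesn1 and Sesn3). With TC alone, 2 rose (Rraga and Ddit4) and 4 fell (Rptor, Tsc1, Prkag2 and Sesn3). Ddit4, an inhibitor of mTORC1 induced by stress, had normalized counts of 1565 and 965 in vehicle, 7054 and 3954 in SR-3420, 2726, 3466 and 2631 in TC, 6700.1, 6425 and 4801 in TC with SR-3420, 1118, 900.1 and 527 in ETO and 7058, 4238 and 4979 in ETO with SR-3420. All SR-3420 samples were above their controls, and Ddit4 rose with SR-3420 alone (log2 fold change 2.13, SE 0.38, adjusted p = 0.00461), with TC (log2 fold change 1.00, SE 0.30, adjusted p = 0.0199) and with ETO (log2 fold change 2.67, SE 0.32, adjusted p = 9.03e-05). Its calls were lost for SR-3420 alone without vehicle replicate 3 or SR-3420 replicate 1 (log2 fold change 1.66 to 1.83, adjusted p 0.0518 to 0.0709). With TC the Ddit4 call was lost without TC replicate 1 or 3 or TC with SR-3420 replicate 1 (log2 fold change 0.92 to 0.95, adjusted p 0.0579 to 0.0707). Ddit4 also rose with TC alone (log2 fold change 1.24, SE 0.35, adjusted p = 0.0355). That call was lost without vehicle replicate 2 or 3 or TC replicate 1, 2 or 3 (log2 fold change 0.92 to 1.63, adjusted p 0.0545 to 0.318). The sestrins, which relay leucine levels and stress to mTORC1, split by gene. Sesn2 rose with SR-3420 in all 3 arms (0.90, 0.72 and 0.84, adjusted p = 0.0469, 0.0145 and 0.00935). Its call was lost for SR-3420 alone without vehicle replicate 2 or 3 or SR-3420 replicate 1 or 3 (log2 fold change 0.65 to 1.21, adjusted p 0.0607 to 0.309), and with TC without TC replicate 3 (log2 fold change 0.64, adjusted p 0.0606). Sesn1 fell in all 3 (-1.17, -0.93 and -0.97, adjusted p = 0.00104, 0.00019 and 0.000245), whichever library was left out.

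Sesn3 fell with SR-3420 alone (log2 fold change -0.94, SE 0.19, adjusted p = 0.00876) and with ETO (log2 fold change -0.62, SE 0.15, adjusted p = 0.01), and gave -0.068 with TC (adjusted p = 0.759). Sesn3 was also lower with TC alone, from 466 ± 25.2 normalized counts in vehicle (mean ± SD, n = 2) to 235 ± 23.9 in TC (n = 3). The fall was called (log2 fold change -0.96, SE 0.17, adjusted p = 0.00201) and kept in every fit that left out a library. The difference of its responses was 0.87 (adjusted p = 0.08). For SR-3420 alone the Sesn3 call was lost without vehicle replicate 2 or SR-3420 replicate 1 or 3 (log2 fold change -0.95 to -0.88, adjusted p 0.0514 to 0.0755). With ETO the Sesn3 call was lost without ETO with SR-3420 replicate 2 (log2 fold change -0.49, adjusted p 0.0508). Fnip2, a folliculin partner in the control of TFEB and TFE3, rose with TC and SR-3420 (log2 fold change 1.00, SE 0.14, adjusted p = 0.000147) and with ETO and SR-3420 (log2 fold change 0.53, SE 0.14, adjusted p = 0.015). With ETO the Fnip2 call was lost without ETO replicate 1 or 2 or ETO with SR-3420 replicate 2 (log2 fold change 0.44 to 0.49, adjusted p 0.0583 to 0.0741).

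The 28 lysosomal genes, many of them known targets of TFEB, were called 0 times in either direction by edgeR for SR-3420 alone (4 higher and 1 lower at an unadjusted p under 0.05, and 3 and 1 by DESeq2). With TC and SR-3420, 4 rose and 6 fell, with ETO and SR-3420, 3 rose and 5 fell, and with TC alone, 1 rose (Npc2) and 1 fell (Scarb2). Of those that fell in both SR-3420 comparisons, 3 encode proteases: Ctsf (log2 fold change -1.17, adjusted p = 0.00187 with TC, log2 fold change -0.95, adjusted p = 0.0102 with ETO), Ctsd (log2 fold change -1.03, adjusted p = 0.000633 and log2 fold change -0.57, adjusted p = 0.032) and Ctsb (log2 fold change -0.77, adjusted p = 0.000517 and log2 fold change -0.46, adjusted p = 0.0205), with Sgsh, a sulfatase of heparan sulfate breakdown, beside them (log2 fold change -0.93, adjusted p = 0.026 and log2 fold change -0.91, adjusted p = 0.0371). Scarb2 fell in both as well, and Npc2 with TC and SR-3420. The other proteases of the list, Ctsa, Ctsl, Ctsz and Tpp1, passed in neither, with log2 fold changes from -0.23 (Ctsz with TC) to 0.38 (Ctsl with ETO). The TC calls of the 3 proteases were kept whichever library was left out. The ETO call was lost for Ctsf without ETO with SR-3420 replicate 2 (log2 fold change -0.87, adjusted p 0.0502). Ctsd lost its ETO call without ETO replicate 1 or 2 or ETO with SR-3420 replicate 2 or 3 (log2 fold change -0.54 to -0.44, adjusted p 0.0922 to 0.123), and Ctsb without ETO replicate 1 or 2 or ETO with SR-3420 replicate 2 (log2 fold change -0.45 to -0.37, adjusted p 0.0601 to 0.086). Sgsh was lost with TC without TC replicate 2 or TC with SR-3420 replicate 2 or 3 (log2 fold change -0.91 to -0.78, adjusted p 0.0635 to 0.0971). With ETO the Sgsh call was lost without ETO replicate 1 or 2 or ETO with SR-3420 replicate 2 or 3 (log2 fold change -0.82 to -0.69, adjusted p 0.111 to 0.136). Gla, the α-galactosidase, rose with TC and SR-3420 (log2 fold change 0.87, adjusted p = 0.00955), a call kept in every such fit, and with ETO and SR-3420 (log2 fold change 0.76, adjusted p = 0.0281). With ETO the Gla call was lost without ETO replicate 1 or 2 or ETO with SR-3420 replicate 2 or 3 (log2 fold change 0.64 to 0.70, adjusted p 0.0691 to 0.116), or with no filter on low counts (adjusted p = 0.0526).

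Of the 15 subunits of the vacuolar ATPase tested, which acidifies the lysosome, edgeR called 0 for SR-3420 alone (3 higher and 0 lower at an unadjusted p under 0.05, and 1 and 0 by DESeq2) and 0 for TC alone (4 higher and 0 lower at an unadjusted p under 0.05, and 2 and 0 by DESeq2). With TC and SR-3420, Atp6v1c1 rose and Atp6v0e fell, and with ETO and SR-3420, Atp6v1e1 fell and edgeR called 0 higher (2 unadjusted, 1 by DESeq2). In the difference of SR-3420 responses between TC and no inhibitor edgeR called 0 genes in each of these 4 lists, with 6, 6, 4 and 0 at an unadjusted p under 0.05 for autophagy, mTORC1, lysosomal and vacuolar ATPase genes, and by DESeq2 3, 3, 1 and 0. Of all 12786 genes tested, 2130 passed at an unadjusted p under 0.05, and DESeq2 called 434 higher and 375 lower. In the difference between ETO and no inhibitor edgeR also called 0 in each list, and DESeq2 0. Without adjustment, 1 of the other autophagy genes was lower at a p under 0.05 and 0 genes of the remaining lists passed. Over all genes, 102 were higher and 205 lower at that p, and DESeq2 called 3 and 6. For ETO against vehicle edgeR called 0 in each of the 4 lists, with 0 at an unadjusted p under 0.05 and 0 by DESeq2.

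The medians of these 4 lists can be set beside those of all genes. In the order SR-3420 alone, TC with SR-3420, ETO with SR-3420 and TC alone, the median log2 fold change was -0.11, -0.066, -0.26 and -0.27 for the other autophagy genes. For mTORC1 and AMPK control it was 0.14, 0.068, -9.8e-06 and 0.031, for the lysosomal genes 0.10, -0.053, 0.050 and 0.20 and for the vacuolar ATPase 0.10, 0.12, 0.12 and 0.14. Over all genes tested it was -0.0038, 0.019, 0.0094 and 0.072.

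**Figure D5:**
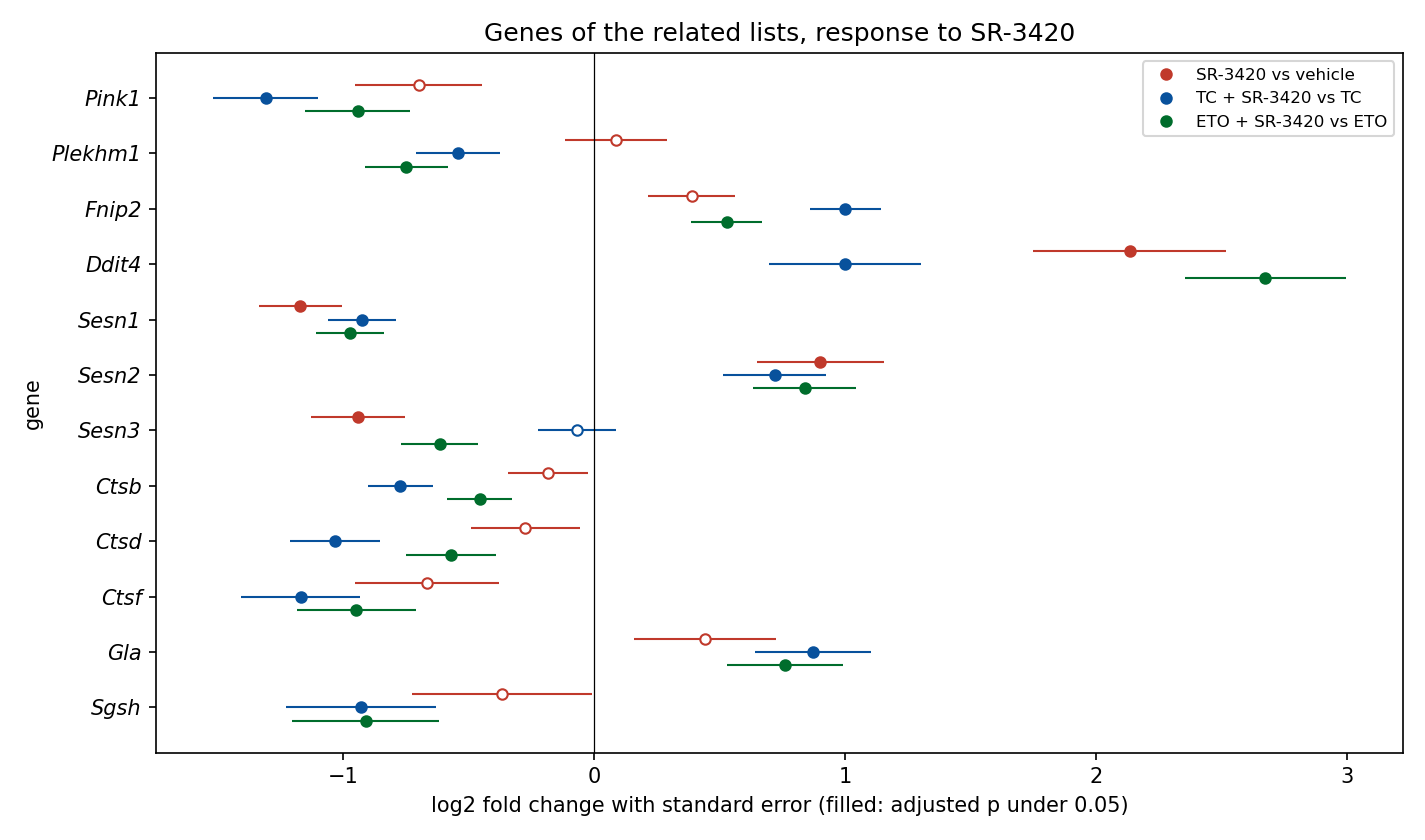
Log2 fold change with its standard error (horizontal axis) of 12 genes of the related lists (rows) for SR-3420 against its control in 3 arms (colours), filled where edgeR's adjusted p was under 0.05. Ddit4 lies furthest to the right and Pink1 furthest to the left.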

How the data were processed

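Counts of reads per gene in 16 samples were deposited by the authors as whole numbers without normalization. Per the submitters' notes and the study's methods, reads were aligned to mm9 with STAR 2.4.2a, filtered with HOMER and counted on genes with iRNA-seq. All per-sample columns were matched to samples by name. Counts were tested with edgeR 4.0.16 in R 4.3.3 (TMM, filterByExpr, glmQLFit and glmQLFTest, 1 mean for each of 6 groups, no covariate), with Benjamini-Hochberg adjustment over the 12786 genes kept. Normalized counts are counts divided by the size factors of DESeq2 1.42.0. Standard errors came from the fold change and the test statistic. Alternatives were DESeq2's size factors, its Wald test, no filter on low counts, the replicate number as a block, and each library left out in turn. The method was tested on simulated counts. Members named with every value are the 14 called members with the largest log2 fold change and the TFEB family, and from each list at most 4 genes per direction with the largest mean log2 fold change among those called in at least 2 of the 3 SR-3420 comparisons. Not every gene this rule takes is named. Wipi2 and other genes named beyond this rule were chosen after their values were seen. Members and lists were chosen with earlier results of these data known. Promoters are from RefSeq. Figures were drawn with matplotlib 3.10.9.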

Additional observations from a re-analysis of the deposited data

Results flagged for a closer look

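The response of Uvrag to SR-3420 differed between arms by a test of the difference itself: it was 0.95 higher on the log2 scale with TC than without inhibitor (SE 0.18, adjusted p = 0.0154 by edgeR), from 0.20 without inhibitor to 1.15 with TC. Uvrag spans 254402 bases, and genes longer than 100 kb shared the direction: their median difference was 0.61, against -0.11 over shorter genes, and 142 of the 1520 longer genes were called higher, against 16 of the 11266 shorter ones. The part of genomic length in the result was not tested. The difference was no longer called without vehicle replicate 2 or 3 or SR-3420 replicate 1 (log2 fold change 0.87 to 1.02, adjusted p 0.0603 to 0.0949).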

How the results depend on the processing

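The 33 members gave 28 calls over the 7 tests. Their 271 values under the alternative settings all kept their direction, and 54 fell short of the threshold. Of the 28 calls, 13 were kept in every fit that left out 1 library, and 22 under all 4 other settings. The number of members called changed as follows, and the cause was not tested. With DESeq2's Wald test, 2 were higher and 4 lower for SR-3420 alone, 4 higher and 8 lower for ETO with SR-3420, 7 lower for TC, and 1 lower for the difference between TC and no inhibitor. Over all genes tested DESeq2's shares were 6.96% higher and 5.32% lower for SR-3420 alone, 14.5% and 15.2% for ETO with SR-3420, 8.96% lower for TC and 2.93% lower for that difference. With no filter on low counts, 1 was lower for SR-3420 alone, 4 lower for TC with SR-3420, 1 higher and 4 lower for ETO with SR-3420, and 2 higher for TC. Over all genes tested the shares in that fit were 1.63% lower for SR-3420 alone and 16.4% lower for TC with SR-3420. They were 10.3% higher and 11.1% lower for ETO with SR-3420, and 2.98% higher for TC. With DESeq2's size factors, 6 were lower for ETO with SR-3420, beside 12.9% of all genes tested.

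Leaving out 1 library in turn gave 0 to 1 higher and 0 to 0 lower for SR-3420 alone, 4 to 4 higher and 3 to 5 lower for TC with SR-3420, 1 to 3 higher and 3 to 7 lower for ETO with SR-3420, and 0 to 2 higher and 2 to 4 lower for TC. It gave 0 higher and 0 lower for ETO in every fit, 0 to 1 higher and 0 lower for the difference between TC and no inhibitor, and 0 and 0 for that between ETO and no inhibitor. Where vehicle or SR-3420 kept 1 sample, it was assumed to vary like the other groups.

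With the replicate number as a replicate block, 3 members were higher and 3 lower for SR-3420 alone, 6 higher and 10 lower for TC with SR-3420, 3 higher and 10 lower for ETO with SR-3420, 4 higher and 9 lower for TC, and 2 higher and 1 lower for the difference between TC and no inhibitor. The block also raised the shares over all genes tested, to 11.1% higher and 7.94% lower, 27.5% and 28.7%, 22.7% and 22.5%, 12.0% and 12.1%, and 5.76% and 7.29% in the same order. Samples of the same number correlated in their deviations from the group means with a mean r of 0.386 over 35 pairs (lowest -0.275, 27 over 0.1), against -0.191 over 71 pairs of different numbers. The samples of replicate 3 each correlated best with another replicate 3, and not every sample of the other numbers with its own. In vehicle and SR-3420, with 2 samples each, the 2 deviations mirror each other by construction. Centring on group means also pushes the r of different numbers below that of the same number if samples pair. These correlations therefore cannot decide whether the numbers pair the samples, and the labels do not say.

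With 2 samples each of vehicle and SR-3420, their comparison is the least precise of the 5 against a control. Atg4a had the fewest normalized counts of the members (mean 54.4 over all samples), with a standard error of 0.40 for SR-3420 alone, against 0.58 for Rb1cc1 at a mean of 556. The part of depth in these errors was not tested. Protein levels, the flux through autophagy and the location of TFEB and TFE3 were not analysed here.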
